A study of Drosophila melanogaster with 12 samples.

Results

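The EGF receptor pathway carries growth and vein-promoting signals in the developing wing, and 9 of its genes were examined here for binding of Ultrabithorax (Ubx) in the haltere disc. Ubx is the Hox transcription factor that makes the haltere, the balancing organ of flies, differ from the wing. The genes were the ligands vn and spi, the ligand-processing genes rho and S, the receptor Egfr, the feedback inhibitors aos, sty and kek1, and the nuclear effector pnt. They were matched by symbol, 9 of 9, in a gene table of Drosophila melanogaster Release 6 that holds 13946 protein-coding genes on the main chromosomes. Each gene was taken with 10 kb on both sides, and a peak or region counted when it shared at least 1 bp with that window.

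Chromatin immunoprecipitation with sequencing (ChIP-seq) maps where a protein sits on DNA, and was done with a polyclonal antibody to the N-terminal part of Ubx. The discs, larval epithelia that form the adult appendages, came from wild-type Canton S larvae at the wandering L3 stage. Ubx ChIP and input were each prepared in 3 biological replicates from haltere discs and from wing discs, 12 samples in 4 groups. Peak lists of the 3 haltere ChIP libraries and 1 consensus list were analysed, while wing and input libraries were not used here, which leaves no contrast between groups. Lists of peaks hold no expression values with which the labelled tissue could be checked.

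In this pathway a ligand binds the receptor tyrosine kinase Egfr, which signals through Ras and MAP kinase to the ETS-family activator encoded by pnt. Star, the product of S, takes part in the release of the active form of the ligand Spitz. Argos, Sprouty and Kekkon1, the products of aos, sty and kek1, each restrain the pathway, and the pathway itself switches on some of its inhibitors. The haltere, unlike the wing, forms no veins.

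The 3 lists held 2869, 2361 and 3859 peaks in replicates 1, 2 and 3, and the consensus list had 2171 regions, each a stretch covered by peaks of at least 2 libraries. Read depth was unknown, so a gene without a peak had none past the authors' threshold, which does not show a lack of binding, and a list with more peaks can hold more at any gene. Fold enrichment is the authors' own value per peak, and it is given here with its percentile within its own list, where 0 is the weakest peak and 100 the strongest.

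All 9 genes had a consensus region within 10 kb, 27 regions in all, and 5 of the 9 had a region overlapped by all 3 libraries. Over all protein-coding genes, 17.7% had a consensus region within 10 kb and 8.76% had one in all 3 libraries. Longer genes have longer windows, and among the 3153 genes whose length lay between those of the shortest and longest of the 9 genes, 5134 and 55937 bp, the shares were 25.2% and 12.4%. The genes were picked with earlier results of these data known, so these counts are a description and no test was made. Leaving out replicate 3 reduced the genes with a region to 5 and the regions to 8. Without replicate 1, 8 genes and 15 regions were left, and without replicate 2, 8 genes and 16 regions. With 2 libraries left a region had to be in both, a rule that can by itself lower the counts. How much of the drop it accounts for was not tested, and shares of all protein-coding genes were not computed under it. Of all 2171 regions, 927 were in all 3 libraries, 762 in replicates 2 and 3 only, 415 in 1 and 3 only and 67 in 1 and 2 only. For the 27 regions here the same counts were 6, 9, 10 and 2.

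The genes whose window held regions in all 3 libraries were vn, spi, S and kek1, with 1 each, and aos, with 2. No region in all 3 libraries lay within 10 kb of rho, Egfr, sty or pnt. Per length, the 9 windows held 6.90 regions per 100 kb, against 1.58 per 100 kb on the main chromosomes and 1.49 without the repeated histone genes. The pooled windows of genes in the same length range held 1.33 per 100 kb.

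Peaks were called at 8 of the 9 genes in replicate 1, at 8 in replicate 2 and at 9 in replicate 3, where 28.9%, 21.3% and 32% of protein-coding genes had a peak within 10 kb. In the same length range these shares were 39.4%, 29.6% and 43.1%. The gene without a peak was rho in replicate 1 and pnt in replicate 2. In total 88 peaks lay in the windows, 28 from replicate 1, 19 from replicate 2 and 41 from replicate 3, and 58 of the 88 (65.9%) overlapped a peak of another library and so a consensus region, against 5201 of the 9089 peaks (57.2%) of the whole lists.

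**Figure D1:**
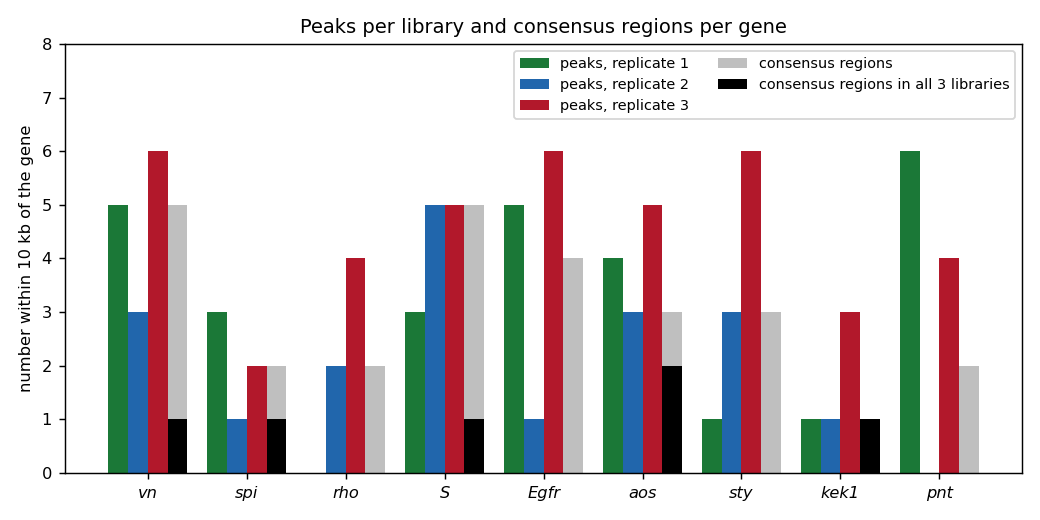
Number of peaks in each of the 3 haltere Ubx ChIP libraries (green, blue and red bars) and number of consensus regions (grey, with those in all 3 libraries in black) within 10 kb of each gene. Replicate 1 has no peak at rho and replicate 2 has none at pnt, and black bars stand at vn, spi, S, aos and kek1.

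The roles in the pathway were set side by side. The ligand-processing genes had 7 regions in 73.3 kb of window, 9.55 per 100 kb, and the ligands had 7 in 81.7 kb, 8.56 per 100 kb. The receptor had 4 regions, 6.95 per 100 kb, and the 3 feedback inhibitors had 7, 6.81 per 100 kb. The nuclear effector pnt, the longest of the 9 genes, had 2 regions, 2.63 per 100 kb. Of the regions in all 3 libraries, 3 lay at feedback inhibitors, 2 at ligands and 1 at a ligand-processing gene. The roles hold between 1 and 3 genes, and these densities were not tested against each other. Their order changed with the libraries used, and the region counts also changed with the flank. Ligand processing, ligands, receptor, feedback inhibitors and pnt had 5, 3, 1, 6 and 0 regions without replicate 1. They had 2, 5, 3, 4 and 2 without replicate 2, and 2, 3, 0, 3 and 0 without replicate 3. With no flank the roles had, in the same order, 5, 3, 4, 1 and 2 regions, and with 20 kb 7, 10, 5, 13 and 2. The feedback inhibitors thus went from 1 region to 13. By nearest protein-coding gene the counts were 5, 7, 4, 4 and 2.

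The place of the regions also differed between genes. All 4 regions of Egfr, both of spi and pnt and all 5 of S overlapped the gene's own extent, whereas none of those of rho, aos or kek1 did. At vn 1 of 5 regions and at sty 1 of 3 lay inside the gene. Across the 9 genes 15 regions lay inside and 12 outside, and 11 of those 12 began more than 5 kb from the gene. A consensus region overlapped the extent of 6 of the 9 genes, against 4.85% of all protein-coding genes and 12.6% of those in the same length range. The gene table gives no strand, exons or UTRs, so places are stated by the lower and higher coordinate ends of a gene, and neither the promoter side nor an intron could be named.

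**Figure D2:**
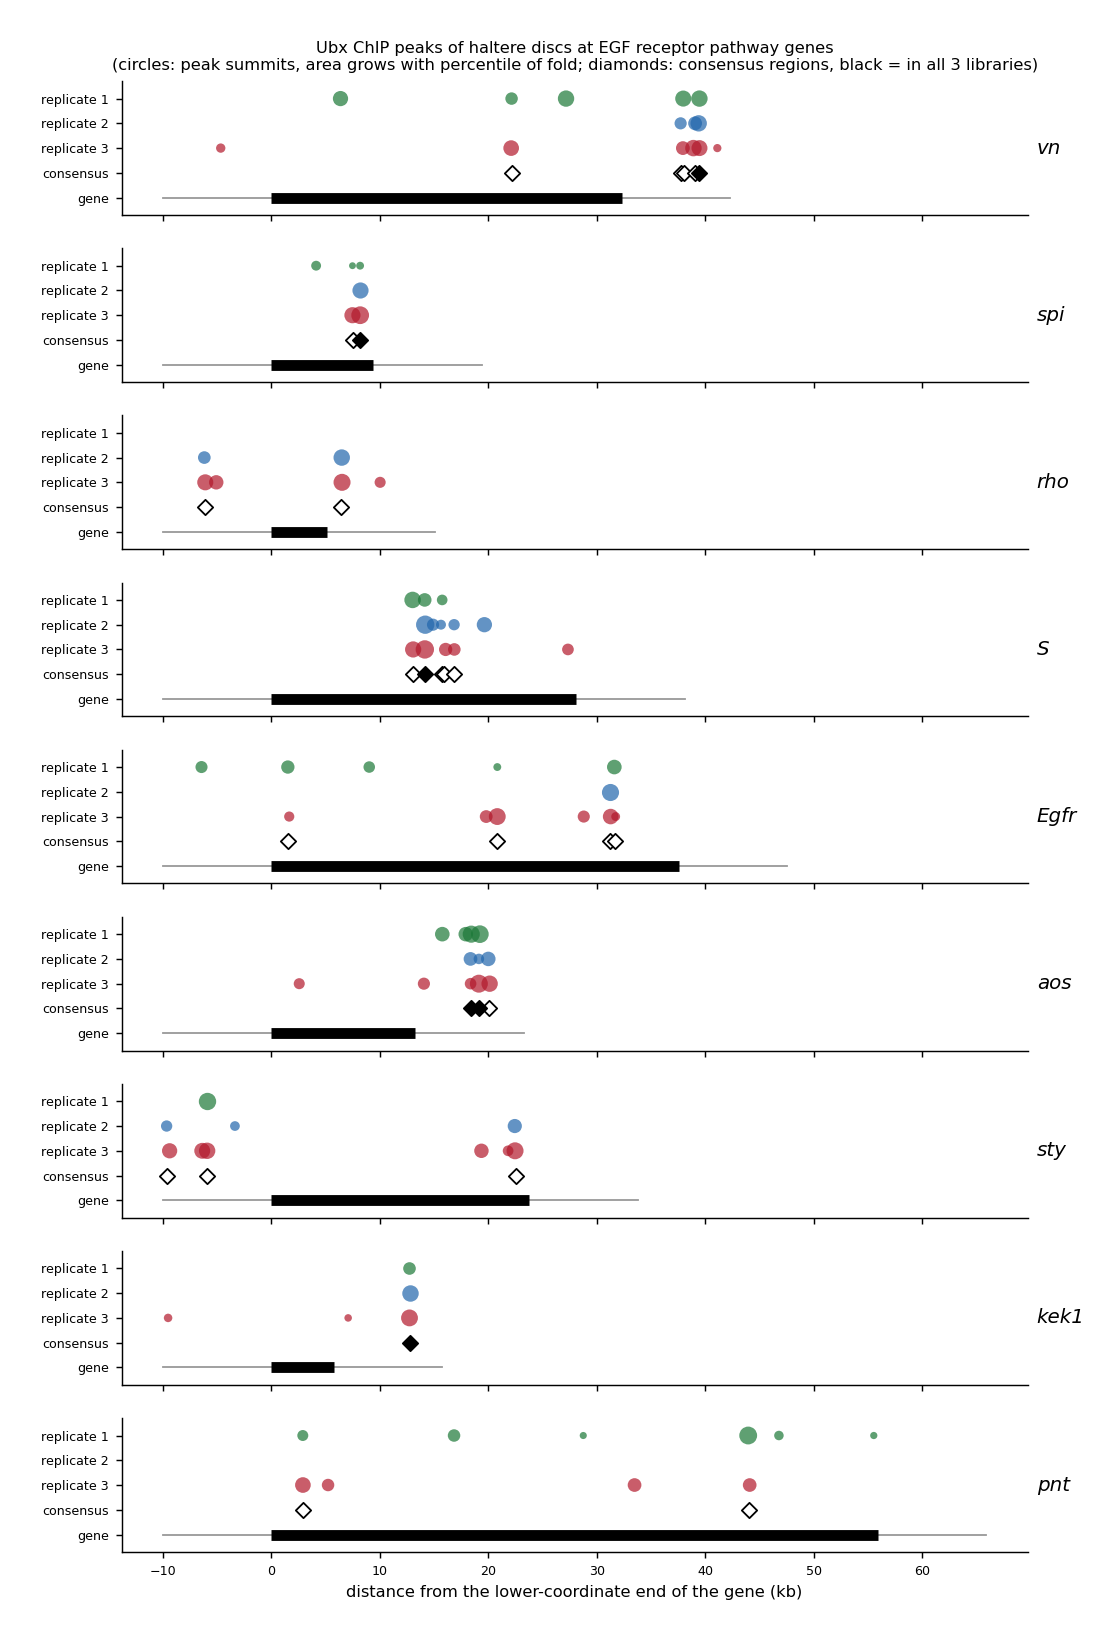
Peak summits of the 3 libraries (circles, larger for a higher percentile of fold within the list) and midpoints of consensus regions (diamonds, black where all 3 libraries overlap) at each gene, by distance in kb from the gene's lower-coordinate end. Black bars are the genes and grey lines the 10 kb flanks. Regions gather beyond the higher-coordinate ends of vn and aos and inside S, and those of Egfr and pnt are spread along the gene.

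The ligand gene vn, on 3L from 5813338 to 5845664, encodes Vein, a secreted neuregulin-like ligand that needs no processing by rho. Its window held 5 peaks in replicate 1, 3 in replicate 2 and 6 in replicate 3. A chain of 4 consensus regions lay within 1861 bp, starting 5413 bp beyond the higher-coordinate end of the gene, and vn was the nearest protein-coding gene to each of them. The last of the chain, 3L from 5852638 to 5852937, was in all 3 libraries, with folds of 5.41, 5.11 and 5.36 in replicates 1, 2 and 3. These stood at the 76.1, 75.8 and 71.4 percentiles, the closest match between libraries among the 6 regions found in all 3. The first 2 regions of the chain share a single replicate 1 peak, so they are not separate sites in that library. The region inside vn had folds of 4.07 in replicate 1 and 5.18 in replicate 3 and no peak in replicate 2. At least 5 regions within 10 kb were found at 252 of all protein-coding genes, 1.81%, and at 47 (1.49%) of those in the same length range, and vn and S both reached that number. It rested on all 3 libraries: without replicate 1, 2 or 3, vn had 2, 3 and 2 regions and S had 3, 2 and 2. With a flank of 5 kb vn had 1 region.

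The other ligand gene, spi, lies on 2L from 19567900 to 19577315 and encodes Spitz, the membrane-bound ligand that rho and S process. It had 3 peaks in replicate 1, 1 in replicate 2 and 2 in replicate 3. Its region in all 3 libraries, 2L from 19576006 to 19576202, had folds of 3.17, 5.004 and 7.93 in replicates 1, 2 and 3. The peak ranked low in replicate 1, at the 5.51 percentile, and high in the others, at the 73.4 and 91.9 percentiles. A second region, 2L from 19575392 to 19575521, came from a replicate 1 peak of fold 2.66 at the 0.505 percentile and a replicate 3 peak of fold 5.47 at the 73.2 percentile. That replicate 1 peak had a −log10 q-value of 2.02, beside a lowest value of 2.00 in its list. The summits of the libraries nevertheless lay within 25 bp of each other in the first region and within 4 bp in the second. The window of spi also touches 8 other protein-coding genes, but both regions lay inside spi alone.

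The gene S, on 2L from 1049674 to 1077815, encodes Star, a membrane protein that escorts Spitz out of the endoplasmic reticulum. It had 3 peaks in replicate 1, 5 in replicate 2 and 5 in replicate 3, and its 5 regions lay within 4006 bp inside the gene. One of them held the strongest peaks of all 9 genes. The region, 2L from 1063701 to 1064083, had a fold of 14.5 in replicate 3, rank 19 of 3859 peaks, and of 10.6 in replicate 2, rank 24 of 2361 peaks. In replicate 1 the same site had a fold of 4.27, rank 1504 of 2869 peaks. The summits of the 3 libraries lay within 47 bp. The site was thus among the strongest of the list in 2 libraries and near the middle of the list in the other, at the 99.5, 99.0 and 47.6 percentiles. The remaining 4 regions of S were each in 2 libraries, with percentiles between 18.4 and 77.1, and 2 of them, from 1065281 and from 1065491, share a single replicate 2 peak.

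The protease gene rho lies on 3L from 1463811 to 1468944, within the extent of the longer gene Ptp61F. It had no peak in replicate 1, 2 in replicate 2 and 4 in replicate 3. Both regions were in replicates 2 and 3. The region 1213 bp beyond the higher-coordinate end, 3L from 1470157 to 1470384, had folds of 5.17 and 6.45 at the 76.6 and 83.2 percentiles. The other lay 6024 bp beyond the lower-coordinate end, from 1457562 to 1457787, with folds of 3.76 and 5.41 at the 39.2 and 72.4 percentiles. Both overlap Ptp61F, so neither can be given to rho by nearest gene. The first of these regions also lies within 10 kb of stet, another rhomboid protease gene, which otherwise had no region.

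The receptor gene Egfr, on 2R from 21522420 to 21559977, had 5 peaks in replicate 1, 1 in replicate 2 and 6 in replicate 3. Its single replicate 2 peak fell in the region with the highest mean percentile, 2R from 21553487 to 21553792, with a fold of 5.79 in replicate 2 and 5.12 in replicate 3. These stood at the 84.3 and 66.8 percentiles. The nearest replicate 1 peak, which began at 21553912 and had a fold of 4.59, did not touch that region but formed the next one with a replicate 3 peak of fold 3.24. Another region, from 21543153 to 21543279, had a fold of 6.21 in replicate 3 and of 3.17 in replicate 1, at the 81.3 and 5.51 percentiles, with summits 3 bp apart. The remaining region, near the lower-coordinate end, was 27 bp wide, the narrowest among the 9 genes. At this gene the libraries overlapped in pairs, and no stretch was covered by all 3.

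The inhibitor gene aos, on 3L from 16470386 to 16483650, encodes Argos, a secreted protein that binds Spitz and keeps it from the receptor. It had 4 peaks in replicate 1, 3 in replicate 2 and 5 in replicate 3. Its 3 regions lay within 1897 bp, starting 5019 bp beyond the higher-coordinate end of the gene. The region from 16489451 to 16489645 had folds of 6.87, 3.39 and 8.94 in replicates 1, 2 and 3, at the 91.0, 22.3 and 94.6 percentiles. Here replicates 1 and 3 ranked the site high and replicate 2 low. The region from 16488669 to 16488889 had folds of 6.06, 4.003 and 3.80, at the 84.6, 48.5 and 30.3 percentiles. The gene CG33158 overlaps aos and also overlaps these 3 regions, so by nearest gene they belong to CG33158.

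The gene sty, on 3L from 3401153 to 3424935, encodes Sprouty, an intracellular inhibitor of receptor tyrosine kinase signalling. Replicates 1, 2 and 3 had 1, 3 and 6 peaks in its window. The region with the highest mean percentile lay 5787 bp beyond the lower-coordinate end, 3L from 3395180 to 3395366, with folds of 6.27 in replicate 1 and 5.67 in replicate 3. Its summits fell on the same base in both libraries, a distance of 0 bp, and replicate 2 had no peak there. The region inside sty, from 3423509 to 3423864, had folds of 4.15 in replicate 2 and 6.40 in replicate 3, at the 53.1 and 82.8 percentiles.

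Just outside the 10 kb limit, sty had 4 further regions, all in all 3 libraries and all beyond its lower-coordinate end. The strongest of these, 16786 bp from sty on 3L from 3383868 to 3384367, had folds of 9.78, 6.45 and 9.70 at the 98.3, 89.6 and 96.0 percentiles. The gene Ids was nearer to all 4 of these regions, between 3785 and 9351 bp away. The nearest of them to sty lay 11505 bp away, and the farthest region counted within the limit lay 9478 bp away. Egfr likewise had a region in all 3 libraries 10189 bp beyond its higher-coordinate end, inside the gene twz, with folds of 3.92, 5.27 and 10.01. In all, 10 further regions lay between 10 and 20 kb from the 9 genes, and 6 of them were in all 3 libraries. So the absence of regions in all 3 libraries at sty and Egfr holds for the 10 kb window and not for 20 kb.

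**Figure D3:**
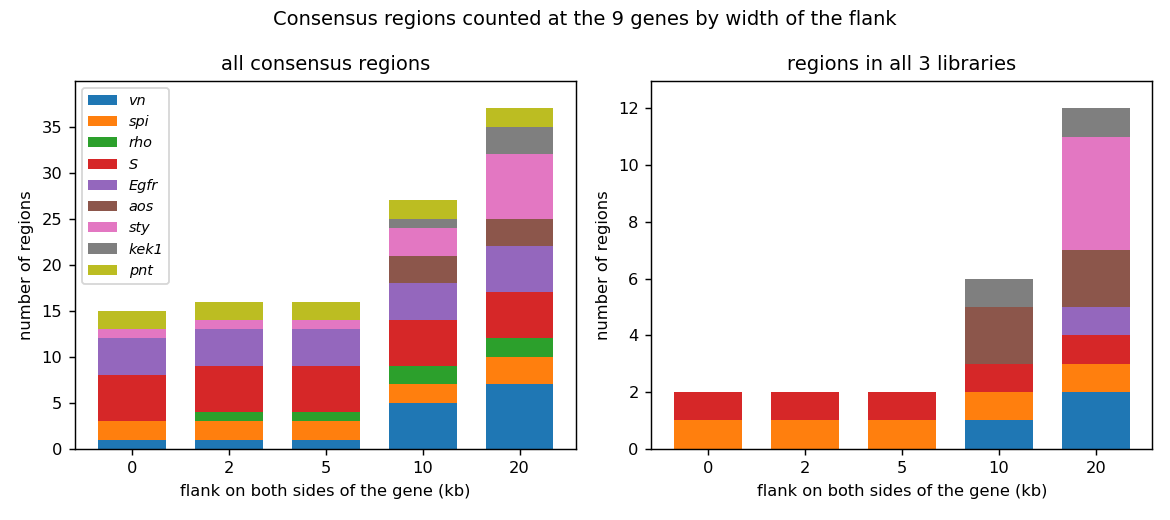
Number of consensus regions (left) and of regions in all 3 libraries (right) at the 9 genes, stacked by gene, for flanks of 0, 2, 5, 10 and 20 kb. The totals are 15, 16, 16, 27 and 37 regions, and 2, 2, 2, 6 and 12 regions in all 3 libraries, with 4 of the 12 at sty.

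The short gene kek1, on 2L from 12817000 to 12822787, encodes a transmembrane protein that binds the receptor and inhibits it. No other protein-coding gene touched its window. It had 1 peak in replicate 1, 1 in replicate 2 and 3 in replicate 3. Its only consensus region lay 6876 bp beyond the higher-coordinate end, 2L from 12829663 to 12829892, and was in all 3 libraries. The folds were 4.10, 5.20 and 6.21 in replicates 1, 2 and 3, at the 38.8, 76.9 and 81.2 percentiles. The other 2 replicate 3 peaks were weak, with folds of 3.16 and 2.93, below the 10th percentile of their list.

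The effector gene pnt, on 3R from 23290231 to 23346167, had 6 peaks in replicate 1, none in replicate 2 and 4 in replicate 3. All 10 peaks lay inside the gene, and 6 of them were in no other library. The region with the higher mean percentile, 3R from 23334190 to 23334360, had folds of 7.27 in replicate 1 and 4.32 in replicate 3. These stood at the 92.9 and 48.3 percentiles. The other region, from 23293121 to 23293185, had folds of 3.74 and 5.18, at the 25.6 and 68.0 percentiles, with summits 10 bp apart.

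**Figure D4:**
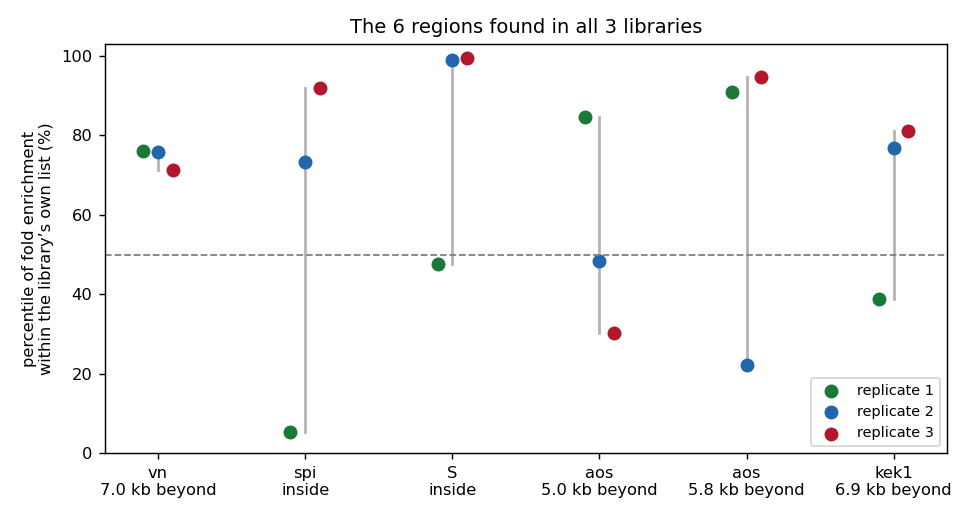
Percentile of fold enrichment, within each library's own list, of the peak in each of the 6 regions found in all 3 libraries. Points are libraries, the grey line joins the lowest and highest, and the dashed line is the middle of a list. At vn the 3 libraries lie between 71.4 and 76.1, and at spi between 5.51 and 91.9.

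Peaks at the 9 genes were next ranked among all peaks of their library, to see whether many regions went with strong ones. Their median folds were 4.16, 4.05 and 4.57 in replicates 1, 2 and 3, against 4.35, 4.05 and 4.40 for the whole lists. The median percentiles were 41.9, 49.8 and 55.4, a mean of 49.0 ± 6.79 (SD, n = 3), where the middle of a list is 50 by construction. Above the 75th percentile stood 7 of 28, 5 of 19 and 10 of 41 peaks, and below the 25th stood 8, 3 and 7. The peaks at these genes were thus spread over most of the range of ranks in each library. The mean of the 3 medians differed from 50 by less than 1 SD between libraries. The replicate 1 median alone, 41.9, lay more than 1 SD below 50, and these differences were not tested.

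By role, the highest percentile in replicate 3 was 99.5 for ligand processing, 94.6 for the feedback inhibitors, 91.9 for the ligands, 81.3 for the receptor and 68.0 for pnt. These are single peaks out of 9, 14, 8, 6 and 4, and a role with more peaks can reach higher. The medians, in the same order, were 55.4, 59.5, 69.7, 37.5 and 48.4, which rank the roles differently. The order by highest peak was not the same in replicate 1, where pnt had the highest single peak, at the 92.9 percentile. There the highest was 91.0 for the feedback inhibitors, 77.1 for ligand processing, 76.1 for the ligands and 57.5 for the receptor. In replicate 2 it was 99.0 for ligand processing, 84.3 for the receptor, 76.9 for the feedback inhibitors and 75.8 for the ligands. There the receptor had 1 peak and pnt had none. No full order of the roles was therefore common to the 3 libraries. Ligand processing and the feedback inhibitors did stand above the ligands in each of them, at times narrowly.

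**Figure D5:**
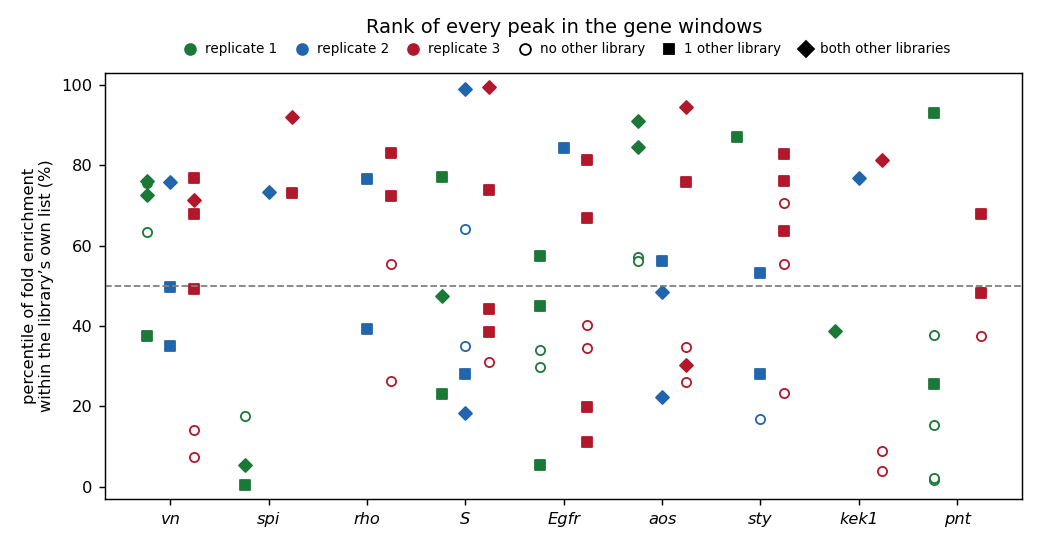
Percentile of fold enrichment of each of the 88 peaks in the windows, by gene and library (colours). Open circles are peaks overlapped by no other library, squares by 1 other and diamonds by both others. Points fill the range from 0.505 to 99.5, and the dashed line is the middle of a list.

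Of the regions at these genes, 6 of 27 (22.2%) were found in all 3 libraries, against 927 of 2171 (42.7%) of the whole list, a difference that was not tested. Replicates 1 and 3 shared 10 of the other 21 regions, replicates 2 and 3 shared 9, and replicates 1 and 2 shared 2. In the whole list the same pairs shared 415, 762 and 67 regions. Replicates 1 and 3 thus made up 47.6% of the regions in 2 libraries at these genes. The share was 33.4% in the list and 36.5% in the list without the repeated histone genes. Of single peaks in replicate 3, 6 of 41 (14.6%, 95% Wilson interval 6.88 to 28.4%) were overlapped by both other libraries, against 24.2% (22.9 to 25.6%) of the whole list. In replicate 1 it was 7 of 28 (25%, 12.7 to 43.4%) against 32.5% (30.8 to 34.2%), and in replicate 2 it was 7 of 19 (36.8%, 19.1 to 59.0%) against 39.3% (37.4 to 41.3%). At the other end, the share of peaks overlapped by no other library was also lower at these genes, 39.3%, 15.8% and 39.0% in replicates 1, 2 and 3, against 51.3%, 26.1% and 46.6% of the whole lists. More of their peaks were thus overlapped by exactly 1 other library, 35.7%, 47.4% and 46.3%, against 16.2%, 34.6% and 29.2%, and these differences were not tested. The intervals of these genes for overlap by both others, and for overlap by none, held the whole-list value in each library. For overlap by exactly 1 other library they were 20.7 to 54.2%, 27.3 to 68.3% and 32.1 to 61.3% in replicates 1, 2 and 3. The whole-list value lay below that interval in replicates 1 and 3 and inside it in replicate 2. Intervals cover counting error only. Neighbouring peaks are not independent.

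Regions at these genes had a median width of 187 bp, against 210 bp in the list. Another consensus region lay within 2 kb of 17 of the 27 (63.0%), against 49.2% of the list and 46.3% of it without the 116 regions at the repeated histone genes. Those 17 include the chains at vn, S and aos. Between the lowest and highest summit of the 6 regions in all 3 libraries the median distance was 71.0 bp, the same as the 71.0 bp of all 927 such regions.

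Other genes of the pathway were counted in the same way. Of 34 further genes, 10 (29.4%) had a consensus region within 10 kb and 7 (20.6%) had one in all 3 libraries. These are to be read beside 17.7% and 8.76% of all protein-coding genes. In the length range of the 9 genes, which does not hold all of the 34, the shares were 25.2% and 12.4%. Of the 10, stet had only the region that it shares with rho. No peak lay near 13 of the 34 in any library, and 11 had a peak in a library but no consensus region. By class, regions lay at 3 of 5 nuclear regulators, 2 of 5 rhomboid protease genes, 1 of 2 ligand genes, 2 of 6 negative regulators, 2 of 11 genes of the Ras and MAP kinase relay and none of 5 kek1 relatives.

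The 7 genes with a region in all 3 libraries were aop, cic, Raf, csw, Krn, ru and Mkp3. The gene aop encodes Yan, the ETS repressor that opposes the product of pnt, and had 2 such regions inside it. The stronger by fold in replicate 3, 2L from 2162402 to 2162763, had folds of 4.96, 5.67 and 7.19 in replicates 1, 2 and 3. The other, from 2164705 to 2164924, had folds of 5.27, 5.75 and 6.09, the higher of the pair in replicates 1 and 2. In cic, a repressor relieved by MAP kinase, the region inside the gene had folds of 5.65, 4.10 and 8.65. Raf, the kinase below Ras, had 2 regions inside it, and the stronger, X from 2296475 to 2296730, had folds of 7.40, 7.24 and 8.04, at the 93.3, 93.6 and 92.4 percentiles. That site stood above the 90th percentile in all 3 libraries, and none of the 6 regions at the 9 genes did so.

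The remaining 4 genes had such a region mostly outside. The outside regions were counted by the 10 kb window alone, and the gene nearest to each is not given here. The region of csw, a tyrosine phosphatase of the relay, lay 7787 bp away, with folds of 4.57, 6.55 and 8.36. That of ru, a rhomboid protease gene like rho, lay 3110 bp away, with folds of 4.95, 5.45 and 8.40. Krn, a ligand gene related to spi, had its region 5066 bp away, with folds of 4.84, 3.84 and 4.33. Mkp3, a MAP kinase phosphatase, had a region 8530 bp away with folds of 7.51, 2.91 and 4.64. The region inside it had folds of 3.86, 3.18 and 3.38, lower in replicates 1 and 3 but not in replicate 2.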

How the data were processed

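Reads were processed with Trimmomatic 0.36, BWA and MACS2 on the genome build BDGP6, per the submitters' processing notes; options, controls and duplicate handling are not given in the sources used here. BDGP6 is Release 6, the assembly of the NCBI RefSeq gene table used for names and positions. The authors deposited, per library, peak positions and summits, a fold enrichment (a linear ratio over background), a −log10 p-value, a −log10 q-value and a score (10 times the −log10 q-value, without decimals). The deposited consensus list gives positions only; all 2171 of its regions were rebuilt as stretches covered by at least 2 of the 3 libraries. No file gives read counts, so depth is unknown. Fold was ranked within its own list; the authors' folds are also printed as they stand, and are not compared as amounts between libraries.

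Positions are 1-based. Overlaps and percentiles were computed in Python 3.11.15 (pandas 2.3.3, numpy 2.4.6), 95% Wilson intervals with scipy 1.17.1, and the overlap code was tested on simulated intervals. The members, the list of 34 other genes and the alternatives were chosen with earlier results of these data known, so no test was made over them. All 9 members are named, and of the 34 other genes those with a region in all 3 libraries, besides stet, named as a neighbour of rho. Of the 34 symbols 33 matched directly and 1 through the table's synonyms. For each member, its regions in all 3 libraries were described or, with none, the region of highest mean percentile; some further regions at the members were chosen after their values were seen, as were the comparison with Raf and the regions beyond 10 kb. Sequence, strand and motifs were not used here.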

Additional observations from a re-analysis of the deposited data

How the results depend on the processing

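The 27 regions at the 9 genes became 15 with no flank, 16 with flanks of 2 kb, 16 with 5 kb, 11 when only the strongest 50% of each list by fold was kept and 17 with a −log10 q-value of at least 5. They became 37 with 20 kb, 22 by nearest protein-coding gene, and from 8 to 16 across the settings that each left out 1 replicate, with 8 without replicate 3. The 6 regions in all libraries became 2 with no flank, with 2 kb and with 5 kb, 12 with 20 kb, 1 in the strongest 50%, and from 8 to 16 with 1 replicate left out, where only 2 libraries have to overlap. The 5 genes with such a region became 2 with no flank, 2 kb or 5 kb, 1 in the strongest 50% and from 5 to 8 with 1 replicate left out. Genes with any region numbered between 5 and 9, with 5 only without replicate 3. The mean of the median percentiles stayed between 45.6 and 52.6, within 1 SD of the reported value. Requiring 50% of a region's length to be covered changed none of these values, and leaving out the peaks and regions at the repeated histone genes, an alternative chosen after seeing the data, changed none of the counts. By gene, 45 counts changed by more than 1.5 times, 43 of them downward and the 2 upward ones with 20 kb.

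Unknown depth limits what a missing peak means at rho in replicate 1 and at pnt in replicate 2. No paired analysis was possible because only the haltere ChIP group had peak lists analysed here. The planned motif counts were not run, because sequence was not used here.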
